A study of Mus musculus with 44 samples.

Results

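The genes described here are 31 genes of tight junctions and epithelial polarity, chosen by name from the 32287 gene identifiers quantified in lineage-traced mouse embryos. They comprise 17 claudins (Cldn1 to Cldn12, Cldn14, Cldn15, Cldn18, Cldn19 and Cldn23), 5 further membrane proteins of the junction (Ocln, Marveld2, Marveld3, F11r and Epcam), 3 cytoplasmic scaffolds (Tjp1, Tjp3 and Cgn), 4 polarity proteins (Crb3, Patj, Pard3 and Pard6b) and 2 regulators of epithelial identity (Esrp1 and Grhl2). Each gene had a single identifier. Transcripts were measured in 44 libraries, each from few cells, of embryos made by aggregating an mCherry+ morula (CD1/G4, reporter driven by EF1a from a PiggyBac insertion) with GFP+ mESCs (G4, a line grown from a single cell with EGFP under CAG at Rosa26). Embryonic cells therefore carried GFP and descended from the mESCs, and extraembryonic cells carried mCherry and descended from the morula. Origin cannot be told apart from reporter and strain background in any group. According to the study's methods, the GFP+ cells were male and the mCherry+ cells could be of either sex. Sex could therefore differ with origin too. Cldn2 lies on chromosome X, and the part of sex in its differences was not tested.

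At E6.5 the groups were Epi, the GFP+ epiblast, and exEndo1 and exEndo2, the distal and proximal mCherry+ visceral endoderm, each with 4 libraries of 1 manually isolated embryo. At E9.5 they were emMidgut, exMidgut, emHindgut, exHindgut and YsEndo, the yolk sac endoderm, each with 4 libraries from pools of 4 embryos. At E13.5 they were emSI, exSI, emColon and exColon, from the small intestine and the colon, each with 3 libraries of 1 embryo. Cells were sorted at E9.5 and E13.5 as EPCAM+, with mCherry for ex and YsEndo. The em cells were dual-labelled at E9.5, with GFP and a low mCherry signal, and GFP+ at E13.5, so the em gate differed between the stages. Since EPCAM was part of the gate, the level of Epcam took part in choosing those cells. The ex cells at E13.5 are also labelled as carrying a Trp53 knockout made with Cas9 in the zygote and the em cells as WT, so that genotype and origin changed together there. The name exGut stands for the 8 exMidgut and exHindgut libraries and emGut for the 8 emMidgut and emHindgut libraries.

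Tight junctions seal the space between neighbouring epithelial cells. Claudins form the strands of the seal and set which ions pass, occludin and its relatives sit in the same strands, and scaffolds of the zonula occludens family tie the strands to actin. The Crumbs and Par complexes place the junction at the border between apical and basolateral membrane, and the transcription factor Grhl2 and the splicing factor Esrp1 maintain the epithelial state in which these genes are used. Definitive gut endoderm arises from epiblast that passes through gastrulation, and part of the visceral endoderm is incorporated into the same gut tube.

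Levels are TPM, a transcript unit scaled for gene length and library, so levels can be compared between genes. Judged from the coverage, each library held 3.53 to 12.04 Gb of aligned bases, and 10382 to 13596 genes were above 1 TPM. Read counts per gene were not used here, so the precision of a value is known from the spread between libraries. Differences are on the log2(TPM + 1) scale, written as the difference ± its standard error (SE), and come from limma, a linear model with moderated variances, two-sided and adjusted by the Benjamini-Hochberg method over all genes tested. A gene was called when its adjusted p was under 0.05 and its difference exceeded 1 on the log2 scale in either direction. Nothing in the sources used here says whether the E6.5 and E13.5 libraries of a group came from separate litters, so the p-values measure the spread between these libraries.

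The labels were checked against reporters and defining markers. EGFP was 179.6 to 532 TPM in Epi and 701 to 880.2 TPM in emMidgut, and mCherry was at least 1731 TPM in every exEndo, exGut, YsEndo and E13.5 ex library and at most 6.61 TPM in every Epi and em library. Pou5f1, a pluripotency factor of the epiblast, was 1067 to 1852 TPM in Epi, and Afp was 23871 to 27040.0 TPM in YsEndo. Some libraries stood apart. The emMidgut replicates 1 and 3 held the germ cell gene Dppa3 (224, 0, 183 and 0 TPM in replicates 1 to 4), the emSI replicates 1 and 2 held the mesenchymal collagen gene Col3a1 (203, 43.9 and 0 TPM), and the exColon replicate 1 held the stratified epithelial keratin gene Krt5 (16.2, 0 and 0 TPM). Within Epi, the primitive streak gene T was 1.05, 23.4, 24.1 and 53.5 TPM. Epi replicates 2 and 3 were the most alike of all pairs of libraries, with a correlation of 0.997 and an SD of 0.134 in their log2 ratio over 2653 genes above 50 TPM. The next closest pair in any group had an SD of 0.157, and both Epi libraries were kept. At E13.5 Trp53 mRNA, the target of the knockout, was 33.4, 167 and 117 TPM in exSI and 42.5, 124 and 122 TPM in exColon, against 172, 158 and 201 in emSI and 151, 226 and 245 in emColon, so it was lower in most ex libraries and not absent.

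The 31 genes fell into a broadly expressed set and a set restricted to some tissues. Averaged over libraries, 17 genes were above 1 TPM in all 12 groups. These were Cldn6, Cldn7, Cldn9 and Cldn12 among the claudins and 13 of the 14 other genes, the exception being Marveld3, listed at 0, 0 and 0.0671 TPM in exColon. Cldn14 and Cldn19 were above 1 TPM in no group. Cldn5, the claudin of endothelial cells, exceeded 1 TPM only in emMidgut, at 20.8, 0, 4.53 and 0 TPM. It was thus seen in the 2 libraries that held Dppa3. The endothelial gene Pecam1 was 3.95, 0.0245, 3.43 and 0.0734 TPM in emMidgut, but 4 of 8 endothelium markers were at 0 in all emMidgut libraries. The 8 markers summed to 12.5 to 37.4 TPM in emMidgut, 26.6 to 65.2 in exMidgut and 46.9 to 89.2 in emHindgut. Cldn15, a pore-forming claudin of the intestine, was above 1 TPM only in emSI, at 5.67, 0 and 0 TPM. The number of genes above 1 TPM was lowest in Epi and exEndo1, with 20 of 31 each, and highest in exMidgut and emSI, with 27 of 31 each.

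**Figure D1:**
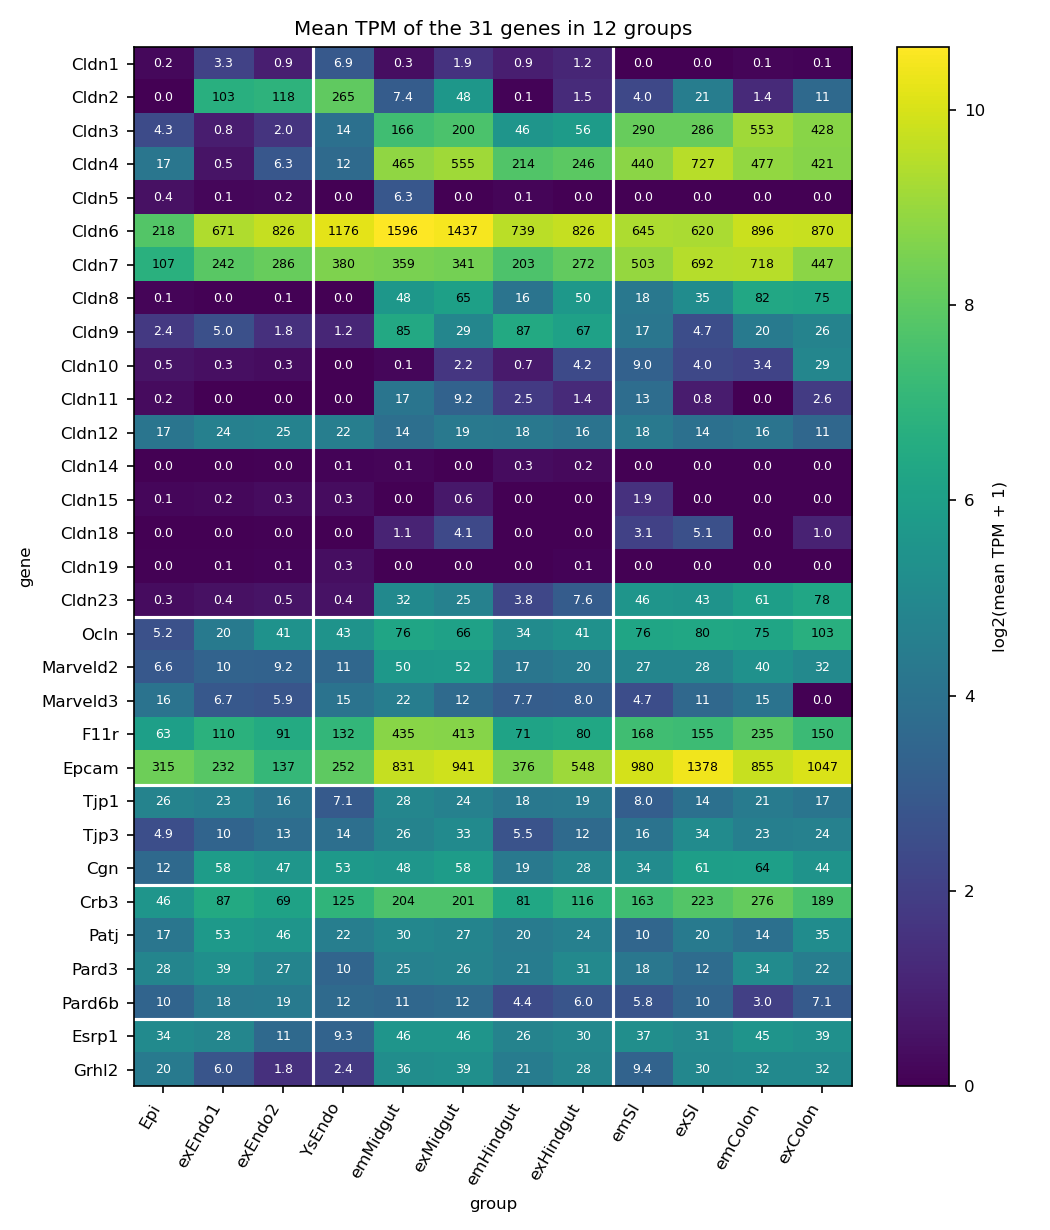
Mean TPM of the 31 genes (rows, ordered as claudins, other membrane proteins, scaffolds, polarity proteins and regulators) in the 12 groups (columns, split by vertical white lines into E6.5, E9.5 and E13.5). Colour gives log2(mean TPM + 1) and the printed numbers are mean TPM. Cldn6, Cldn7 and Epcam are high in every column, whereas Cldn3, Cldn4, Cldn8 and Cldn23 have a higher mean in each gut column than in Epi, exEndo1, exEndo2 or YsEndo.

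Claudin mRNA as a whole was lowest in Epi and highest in emColon and the 2 midgut groups. The summed TPM of the 17 claudins was 368 ± 126 (SD, n = 4) in Epi, 1050.1 ± 237 in exEndo1 and 1268 ± 251 in exEndo2. At E9.5 it was 2797 ± 94.9 in emMidgut and 2736 ± 184 in exMidgut, 1332 ± 129 in emHindgut and 1549 ± 185 in exHindgut, and 1879 ± 176 in YsEndo. Both midgut groups thus lay above both hindgut groups without overlap, and the values of the 2 origins overlapped within each region. At E13.5 the sum was 2008 ± 231 (SD, n = 3) in emSI, 2453 ± 364 in exSI, 2829 ± 69.7 in emColon and 2399 ± 595 in exColon.

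Cldn6, a claudin of embryonic epithelia, made up more than any other claudin in 11 of the 12 groups. Its share of claudin TPM was 58.0% ± 5.34 in Epi, 65.1% ± 1.57 in exEndo2, 62.5% ± 2.10 in YsEndo and 57.0% ± 3.17 in emMidgut. By E13.5 its share was 31.6% ± 6.55 in emSI, 31.7% ± 1.64 in emColon, 36.1% ± 1.05 in exColon and 25.4% ± 10.3 in exSI, where Cldn4 held 29.1% ± 8.02 and Cldn7 28.7% ± 5.98. The other large shares differed by tissue. Cldn7, which is spread along the lateral membrane of many epithelia, held 29.8% ± 2.82 in Epi and 23.4% ± 1.93 in exEndo1, and Cldn2, a cation and water pore, held 9.72% ± 1.93 in exEndo1 and 14.3% ± 2.32 in YsEndo. In the gut, Cldn4 and Cldn3, which are both sealing claudins, held 20.3% ± 0.773 and 7.26% ± 2.54 in exMidgut and 16.9% ± 5.22 and 19.5% ± 1.43 in emColon. These shares are of mRNA, are bound to sum to the whole and are given without a test.

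**Figure D2:**
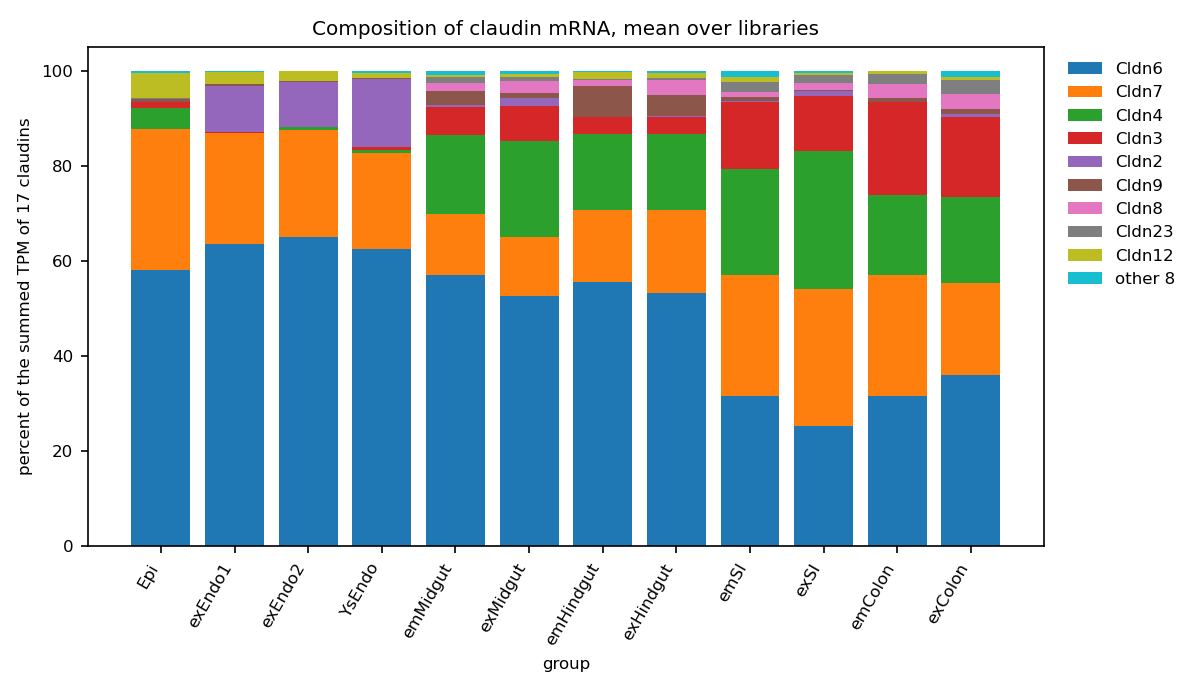
Share of each claudin in the summed TPM of the 17 claudins (y axis, percent, starting at 0), averaged over the libraries of each of the 12 groups (x axis). The 8 claudins not named are joined as other 8. Cldn2 is a visible band in exEndo1, exEndo2 and YsEndo, and Cldn3 and Cldn4 are visible bands in the gut groups.

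Cldn2 was high in visceral and yolk sac endoderm and Cldn3 and Cldn4 were high in gut, and the promoters of these 3 claudins are shown for that reason. On mm10, Cldn4 (chromosome 5, 134945119 to 134946934, minus strand) and Cldn3 (chromosome 5, 134986214 to 134987472, plus strand) are neighbours that point away from each other with 39279 bases between them, and Cldn2 lies on chromosome X at 139800828 to 139811386. RefSeq promoter windows of build GRCm38 (mm10) existed for 25 of the 31 genes, 40 windows in all. The 250 bases before each start follow in lower case with every CG dinucleotide in capitals, from chrX:139800558-139800807 on the plus strand, chr5:134985964-134986213 on the plus strand and chr5:134946935-134947184 on the minus strand.
Cldn2: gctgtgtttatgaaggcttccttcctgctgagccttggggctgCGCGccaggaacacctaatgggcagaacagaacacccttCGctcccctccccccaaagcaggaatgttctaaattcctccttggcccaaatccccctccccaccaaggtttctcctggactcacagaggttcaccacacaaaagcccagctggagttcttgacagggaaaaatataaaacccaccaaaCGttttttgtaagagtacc
Cldn3: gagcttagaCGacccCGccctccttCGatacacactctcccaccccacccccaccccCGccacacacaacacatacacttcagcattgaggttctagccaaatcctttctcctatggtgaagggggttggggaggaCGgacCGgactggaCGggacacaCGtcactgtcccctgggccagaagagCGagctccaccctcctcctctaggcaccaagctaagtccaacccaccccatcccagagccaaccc
Cldn4: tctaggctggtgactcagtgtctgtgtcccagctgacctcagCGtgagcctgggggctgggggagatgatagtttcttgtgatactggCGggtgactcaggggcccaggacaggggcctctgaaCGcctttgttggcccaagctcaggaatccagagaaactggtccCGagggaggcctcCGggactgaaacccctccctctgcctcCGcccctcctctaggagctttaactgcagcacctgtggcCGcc
The Cldn2 stretch held 4 CG dinucleotides, the Cldn3 stretch 9 and the Cldn4 stretch 7, against a median of 6 over all 32851 windows and of 9 over the 40 windows of these genes. The letters TATAAA, searched on both strands, occurred in the Cldn2 stretch at position -35 from the start, and 12.4% of all windows held them. The letters TTTATG, the core recognised by Cdx factors, were at position -244 of Cldn2, in 10.8% of all windows. A relaxed Grhl motif, AACCNGTT, was held by 1.79% of all windows and by those of 2 of these genes, Cgn and Cldn5, and TGTTTAC, a Fox core, by 3.17% of all windows and by none of these 40. Cgn was the 1 called gene with the Grhl letters, and the 60 bases that hold them, at chr3:94786483-94786542 on the minus strand, are given with the match in capitals.
Cgn: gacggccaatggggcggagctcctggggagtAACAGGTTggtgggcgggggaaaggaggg
A match of letters is a description of the window and was not tested against the levels.

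At E6.5, visceral endoderm held more Cldn2, Cldn6, Cldn7, Ocln, Cgn and Patj than the epiblast and less Grhl2 and Marveld3. Of 21 genes tested in exEndo1 against Epi, 6 rose and 4 fell, where 33.4% of all 12057 genes tested were called, 19.8% higher and 13.6% lower. In exEndo2 against Epi, 7 rose and 4 fell of 21 tested, where 35.8% of all 12046 genes were called, 20.4% higher and 15.4% lower. The median difference of the tested genes was 0.77 in exEndo1 and 0.54 in exEndo2, beside 0.09 and 0.05 over all genes. Both comparisons share the Epi libraries. The other 10 genes did not pass the filter of 1 TPM in 4 libraries in either comparison.

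Cldn2 showed the largest difference. It was 0.0217, 0, 0.0867 and 0 TPM in the 4 Epi libraries, 61.7, 94.8, 146 and 109.8 TPM in exEndo1 and 103, 95.7, 147 and 125 TPM in exEndo2. The epiblast libraries were all at or near 0 and every endoderm library was at 61.7 TPM or above. The difference was 6.60 ± 0.23 in exEndo1 (adjusted p = 2.05e-09, limma) and 6.83 ± 0.17 in exEndo2 (adjusted p = 4.38e-11). Cldn6 was 266, 259, 257 and 91.2 TPM in Epi, 424, 785, 723 and 752 TPM in exEndo1 and 608, 794, 1026 and 878 TPM in exEndo2, and rose by 1.70 and 2.01 on the log2 scale. No Epi library reached the lowest endoderm library for this gene. Cldn7 was 126, 121, 119 and 61.6 TPM in Epi, 182 to 267 TPM in exEndo1 and 204 to 353 TPM in exEndo2, and rose by 1.21 and 1.44.

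The strand protein occludin and the scaffold cingulin rose with these claudins. Ocln was 5.76, 5.69, 4.38 and 5.14 TPM in Epi, 17.03, 13.1, 28.6 and 20.2 in exEndo1 and 36.6, 46.0, 37.4 and 46.0 in exEndo2, an increase of 1.68 ± 0.22 and 2.76 ± 0.15. Cgn was 17.8, 11.1, 10.5 and 6.84 TPM in Epi, 52.2, 63.2, 62.4 and 56.1 in exEndo1 and 55.1, 54.1, 37.7 and 42.1 in exEndo2, an increase of 2.31 ± 0.23 and 1.99 ± 0.24. Patj, a large scaffold of the Crumbs complex, was 15.7 to 18.8 TPM in Epi and rose, with 49.8 to 55.4 TPM in exEndo1 and 33.7 to 56.6 TPM in exEndo2. For these 3 genes all endoderm libraries lay above all Epi libraries, as did 32% of all genes tested in exEndo1 and 32.1% in exEndo2. Tjp3, the zonula occludens protein ZO-3, was called in exEndo2 alone (1.32 ± 0.28, adjusted p = 0.00132), and its values were 4.52, 10.8, 12.6 and 11.7 TPM in exEndo1 and 10.0, 13.9, 13.1 and 14.2 TPM in exEndo2.

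In each endoderm 4 genes fell, Grhl2 and Marveld3 in both. Grhl2 was 23.3, 19.5, 20.8 and 15.2 TPM in Epi, 6.75, 7.08, 4.91 and 5.25 TPM in exEndo1 and 0.739, 3.44, 1.12 and 1.82 TPM in exEndo2, with differences of -1.56 ± 0.18 and -2.97 ± 0.27. Esrp1 was 35.6, 29.8, 30.4 and 38.2 TPM in Epi, 33.5, 27.6, 19.1 and 32.3 TPM in exEndo1 and 15.5, 11.4, 8.41 and 10.2 TPM in exEndo2, and fell in exEndo2 (-1.503 ± 0.18, adjusted p = 1.94e-05), while exEndo1 gave -0.27 ± 0.18. Epcam also fell in exEndo2 (-1.20 ± 0.12). Marveld3, the third MARVEL-domain protein of the junction, fell in both (-1.14 ± 0.19 and -1.32 ± 0.23). Cldn4 was 34.1, 17.4, 12.2 and 5.62 TPM in Epi and 0.935, 0, 0.953 and 0.00982 TPM in exEndo1, where it fell (-3.46 ± 0.44). Cldn3 fell there too and was 1.37 to 7.55 TPM in Epi and 0.444 to 1.06 TPM in exEndo1. In exEndo2 the Cldn4 values were 0.341, 17.04, 0 and 7.83 TPM, so replicates 2 and 4 lay within the Epi range while the others were near 0, and the difference of -2.01 ± 0.83 was not called (adjusted p = 0.0502). According to the study's methods, exEndo2 was separated by hand from the extraembryonic ectoderm. The 7 markers of that tissue summed to 9.80 to 59.1 TPM in exEndo2, 16.8 to 29.7 in exEndo1 and 3.24 to 4.99 in Epi. Their part in the Cldn4 values was not tested. Without Epi replicate 4 or exEndo2 replicate 4, Cldn3 and Cldn4 were called in exEndo2, and Cldn4 was called there without exEndo2 replicate 2. In exEndo1, Cldn7 lost its call without Epi replicate 4 and Marveld3 without exEndo1 replicate 1, and Tjp3 was called without Epi replicate 1, Epi replicate 2 or exEndo1 replicate 1.

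The distal and proximal visceral endoderm differed in 4 of 19 genes tested, 3 higher and 1 lower in exEndo1, where 6.41% of all genes were called, 3.96% higher and 2.45% lower. Grhl2, Esrp1 and Cldn9 were higher in exEndo1, by 1.41 ± 0.28 (adjusted p = 0.00697), 1.23 ± 0.22 (adjusted p = 0.00335) and 1.09 ± 0.25 (adjusted p = 0.0144). For Grhl2 and Esrp1 the lowest distal library stood above the highest proximal one, and Cldn9 was 2.90, 5.96, 4.40 and 6.92 TPM against 1.88, 1.93, 1.15 and 2.12 TPM, also without overlap, as for 11.3% of all genes higher in exEndo1. Ocln was lower in exEndo1 (-1.08 ± 0.21, adjusted p = 0.00583). According to the study's methods, exEndo1 was separated by hand from the epiblast. The 6 epiblast markers, Pou5f1 among them, summed to 368 to 525 TPM in exEndo1, 174 to 229 in exEndo2 and 2579 to 4265 in Epi. The part of epiblast RNA in the differences between exEndo1 and exEndo2 was not tested. Cldn2 differed by -0.23 ± 0.23 (adjusted p = 0.548), less than its spread. Without exEndo1 replicate 2 the calls for Cldn9 and Ocln were lost, leaving 2 calls, and Cldn9 also lost its call without exEndo1 replicate 4 or exEndo2 replicate 3. Amot, which codes for the junction-bound protein angiomotin and is not among the 31, was 1037, 547, 625 and 624 TPM in exEndo1, 323, 223, 258 and 269 TPM in exEndo2 and 7.41, 18.8, 16.7 and 19.2 TPM in Epi. Among further genes of the same pathways, 2 of 16 tight junction genes tested rose (Amot and Magi3) and 2 fell (Amotl1 and Jam3) in exEndo1 against Epi, 2 of 14 polarity genes rose (Llgl2 and Mpp5) and 1 fell (Mpdz), and 11 of 18 epithelial regulators and their targets rose and 1 fell.

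**Figure D3:**
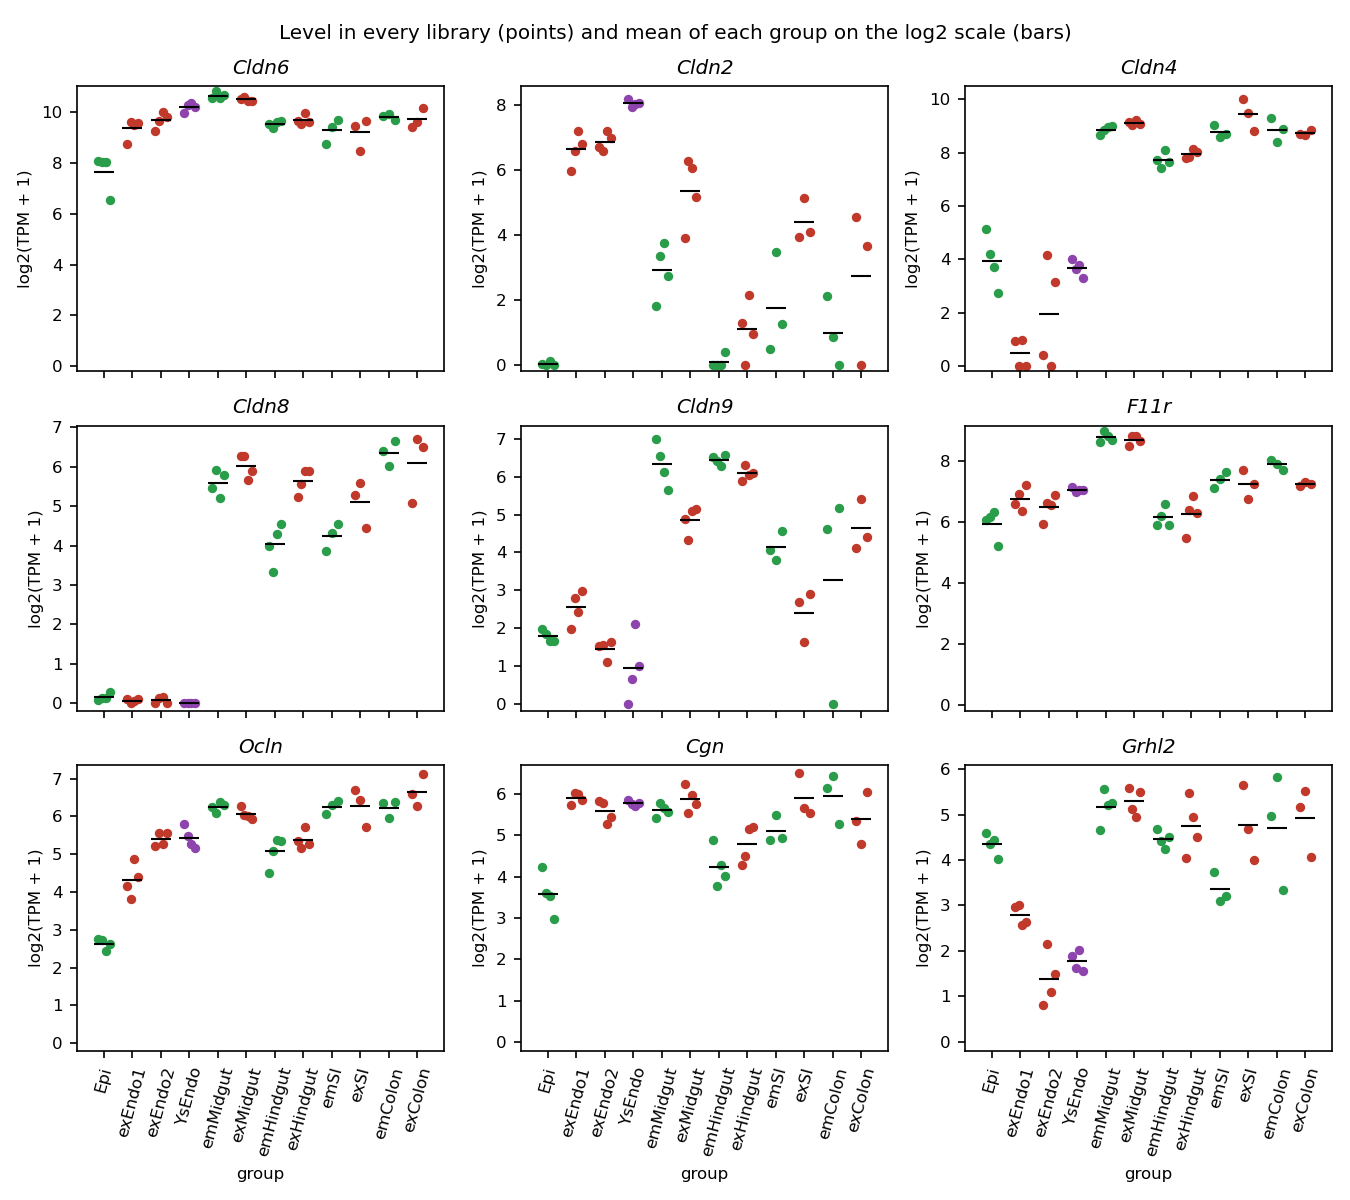
Level in every library (points, y axis log2(TPM + 1)) of 9 genes in the 12 groups (x axis), with the mean of each group on that scale as a bar. Green marks Epi and em libraries, red marks ex libraries and purple marks YsEndo. Cldn2 and Cldn4 run in opposite directions between visceral or yolk sac endoderm and gut, and Grhl2 is lowest in exEndo2 and YsEndo.

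Gut endoderm of both origins held a set of claudins that was absent or low in its E6.5 counterpart. The E6.5 tissues were manually isolated from 1 embryo each, and the E9.5 cells were sorted as EPCAM+ from pools of 4 embryos. Stage, isolation and pooling therefore cannot be told apart in these comparisons. In emGut against Epi, 12 of 24 genes tested rose and none fell, where 22.4% of all genes were called higher and 7.31% lower. The median difference was 1.41, beside 0.30 over all genes, which median-ratio rescaling of the libraries brought to 0.07 without changing any of the 12 calls. In exGut against exEndo1, 11 of 26 rose and 3 fell, where 18.8% of all genes were called higher and 11.5% lower. The 2 comparisons share no library. Cldn3, Cldn4, Cldn8, Cldn9, Cldn11, Cldn23, Ocln and Marveld2 were called higher in both comparisons. Further tight junction genes tested gave 4 of 17 higher (Amotl1, Ildr1, Arhgef2 and Jam3) and 2 lower (Ybx3 and Amot) in exGut, and further epithelial regulators and targets gave 12 of 17 higher in emGut and 4 of 18 in exGut.

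Cldn4 showed the largest change in exGut. It was 0 to 0.953 TPM in exEndo1, 571, 520.1, 598 and 532 TPM in exMidgut and 219, 226, 277 and 262 TPM in exHindgut, a rise of 8.05 ± 0.33 (adjusted p = 4.29e-10). In the embryonic lineage it was 5.62 to 34.1 TPM in Epi, 402, 456, 491 and 512 TPM in emMidgut and 213, 172, 273 and 199 TPM in emHindgut, a rise of 4.35 ± 0.40 (adjusted p = 7.57e-07). Its neighbour Cldn3 was 171, 130.4, 202 and 161 TPM in emMidgut, 216, 92.1, 256 and 235 in exMidgut, 56.6, 24.0, 51.9 and 52.6 in emHindgut and 62.6, 32.3, 57.8 and 70.6 in exHindgut, and rose by 4.16 over Epi and by 5.82 over exEndo1. The 2 neighbours thus moved the same way in both lineages. Cldn8, a barrier claudin of the distal gut and kidney, was at most 0.228 TPM in every Epi, exEndo1 and exEndo2 library and 43.0, 58.9, 36.0 and 54.1 TPM in emMidgut and 76.6, 76.1, 49.2 and 57.9 TPM in exMidgut. Cldn9 lies 137 bases from Cldn6 on chromosome 17 with the 2 genes facing each other, and its level did not follow that of Cldn6. YsEndo held 979.9 to 1312 TPM of Cldn6 and 0 to 3.34 TPM of Cldn9, whereas emHindgut held 659.9 to 803 TPM of Cldn6 and 91.6, 84.5, 77.5 and 94.2 TPM of Cldn9.

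Tricellulin, coded by Marveld2 and placed where 3 cells meet, was 5.48 to 7.62 TPM in Epi and 7.78 to 12.3 TPM in exEndo1, and reached 44.9, 56.6, 38.3 and 59.5 TPM in emMidgut and 51.8, 54.7, 46.3 and 55.0 TPM in exMidgut. It rose by 1.99 ± 0.38 in emGut and 1.67 ± 0.35 in exGut. Ocln, which lies 43238 bases from Marveld2 on chromosome 13, rose by 3.03 over Epi and 1.40 over exEndo1. Other genes were called in 1 lineage. Cldn6, Cldn7, Cgn and Crb3 rose in emGut against Epi, by 2.43, 1.38, 1.33 and 1.45, and gave 0.73, 0.31, -0.57 and 0.78 in exGut against exEndo1, none of them called. Grhl2 rose in exGut, with 4.91 to 7.08 TPM in exEndo1, 29.8 to 46.9 in exMidgut and 15.4 to 43.3 in exHindgut (2.22 ± 0.28, adjusted p = 1.43e-05), and gave 0.46 ± 0.24 in emGut. Epcam and Cldn10 also rose in exGut (1.66 and 1.52), and EPCAM was part of the E9.5 gate but not of the E6.5 isolation. Cldn2 (-3.41 ± 1.06), Patj (-1.06 ± 0.18) and Pard6b (-1.10 ± 0.34) fell. Whether the change over time differed between the lineages was not tested. With hindgut libraries alone Cldn11 and Cldn23 were not called in exGut and Cgn, Cldn7 and Crb3 were not called in emGut. With midgut libraries alone Cldn10, Patj and Pard6b were not called in exGut. Other calls were gained in these fits. In exGut, Cldn6, Crb3, F11r and Tjp3 were called higher with midgut alone, and Cgn was called lower with hindgut alone. In emGut, Cldn2, Epcam, F11r and Tjp3 were called higher with midgut alone, and Marveld3 and Pard6b were called lower with hindgut alone. The counts were 16 in emGut and 15 in exGut with midgut alone, and 11 and 13 with hindgut alone. Pard6b lost its call without exHindgut replicate 4 and Patj without exHindgut replicate 1, whereas Tjp3 was called in exGut without exHindgut replicate 2. In emGut, F11r was called without any 1 of the 4 emHindgut libraries, and Tjp3 without emHindgut replicate 1 or 3.

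Yolk sac endoderm, which stays outside the embryo, was set against the proximal visceral endoderm and then against the gut of the same origin. In YsEndo against exEndo2, 7 of 22 genes tested were called, 5 higher and 2 lower. Of all genes 29.6% were called, most of them lower (21.6% of all genes). The share called either way was thus near the background, but the direction was not that of most called genes. The median difference was 0.31 over the tested genes, beside -0.41 over all genes. Stage, isolation and pooling changed together in this comparison too. Cldn1, Cldn2, Cldn3, Cldn4 and Marveld3 were higher in YsEndo and Tjp1 and Pard3 were lower. Cldn2 was 288, 243, 263 and 267 TPM in YsEndo, the highest level of any group, and rose by 1.18 ± 0.13 (adjusted p = 7.41e-06). Cldn1, a sealing claudin prominent in skin, was 10.3, 4.08, 7.02 and 6.09 TPM there and 0, 3.34, 0.0168 and 0.0876 TPM in exEndo2. Cldn3 and Cldn4 rose by 2.64 and 1.74 but stayed at 10.1 to 18.6 and 8.77 to 15.03 TPM, and the call of Cldn4 (adjusted p = 0.046) was lost without exEndo2 replicate 1 or 3 or any 1 of the 4 YsEndo libraries. Tjp1 (-1.04 ± 0.20) lost its call without exEndo2 replicate 1 or YsEndo replicate 3, and Patj was called lower without exEndo2 replicate 3 or 4 or YsEndo replicate 3 or 4. Over all genes the median difference was -0.41. Median-ratio rescaling brought it to -0.04, and with it Tjp1 and Pard3 were no longer called while Crb3 and Epcam were called higher. None of 15 further tight junction genes tested rose and 7 fell, where 21.6% of all genes were called lower.

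Set against YsEndo, exGut differed in 15 of 26 genes tested, 13 higher and 2 lower, where 32.3% of all genes were called higher and 10% lower. The median difference was 0.97 over these genes and 0.59 over all genes, and rescaling brought the latter to 0.16. Grhl2 was 2.72, 2.07, 3.05 and 1.94 TPM in YsEndo, 46.9, 33.8, 29.8 and 44.4 TPM in exMidgut and 15.4, 43.3, 29.8 and 21.8 TPM in exHindgut (3.24 ± 0.28, adjusted p = 2.14e-07). Esrp1 was 10.9, 7.72, 9.40 and 9.26 TPM in YsEndo and 32.3 to 56.4 TPM in exMidgut (1.86 ± 0.23). For both regulators no YsEndo library reached the lowest gut library. Of the 26 genes tested 13 did not overlap between the groups, a share that was not set against all genes. Cldn4 was 15.03, 11.5, 12.7 and 8.77 TPM in YsEndo and differed by 4.85 ± 0.30 (adjusted p = 6.89e-09), Cldn9 by 4.54 ± 0.42 and Cldn3 by 2.75 ± 0.49. Cldn8, Cldn10 and Cldn11 were listed at 0 in all 4 YsEndo libraries. Cldn8 was at 36.4 TPM or above in every exGut library, and against libraries listed at 0 no fold is given.

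In the other direction, Cldn2 was lower in exGut than in YsEndo (-4.83 ± 1.06, adjusted p = 0.00121), as was Cldn1 (-1.81 ± 0.48). Cldn6 and Cldn7, the 2 most abundant claudins of YsEndo, gave -0.11 ± 0.21 and -0.35 ± 0.18 and were not called. Marveld2, Epcam, Cldn23, Tjp1 and Pard3 were higher in exGut, by 1.497, 1.501, 3.07, 1.45 and 1.42. With the rescaling, Tjp1 and Pard3 lost their calls and Marveld3 was called lower. With hindgut libraries alone Cldn11, Cldn23 and Marveld2 were not called and Marveld3 was called lower, and with midgut libraries alone Cldn10 was not called and F11r and Tjp3 were called higher. Of further genes of these pathways, 8 of 17 tight junction genes and 9 of 16 polarity genes tested were higher in exGut and none was lower, beside the background of 32.3%. Visceral and yolk sac endoderm markers summed to 54379 to 63623 TPM in YsEndo, 7241 to 13894 in exMidgut and 1399.9 to 1928 in exHindgut, and how far this share of the RNA moved the other TPM values was not tested beyond the rescaling.

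Between exGut and emGut at E9.5, 1 of 27 genes tested was called, where 2.35% of all genes were called. An unadjusted p was under 0.05 for 4 of the 27 and for 2225 of all 13473 genes. The study's methods state that the dual-labelled emGut cells may carry leftover extraembryonic transcripts, which would weaken a difference between the origins. Cldn10, which forms ion pores, was higher in exGut (1.55 ± 0.36, adjusted p = 0.0176), at low levels. It was 0.136, 0.363, 0 and 0 TPM in emMidgut, 0.457, 2.30, 1.44 and 4.56 in exMidgut, 0, 0.220, 2.51 and 0 in emHindgut and 5.51, 1.72, 6.43 and 3.15 in exHindgut, with overlap between origins in the hindgut. Its call was lost when the emMidgut replicates 1 and 3 were left out (adjusted p = 0.0584), which left no gene called. It was also not called with midgut libraries alone or with hindgut libraries alone. Cldn8 was also called without emMidgut replicate 2 or 4, and Cldn9 without emMidgut replicate 4 or exHindgut replicate 2, 3 or 4, so that leaving out 1 library gave 1 to 3 called genes. Of the more abundant genes, 7 that were not called gave 0.00 ± 0.24 for Cldn6, 0.36 ± 0.24 for Epcam, 0.24 ± 0.28 for Cldn4, 0.14 ± 0.19 for Cldn7, 0.02 ± 0.61 for F11r, 0.24 ± 0.29 for Crb3 and 0.23 ± 0.48 for Cldn3. The SE of the 27 differences ran from 0.15 for Pard3 to 0.92 for Cldn2 in this fit, which counts the difference between regions as spread. With region as a covariate 3 genes were called, Cldn10, Cldn2 and Cldn8, where 4.36% of all genes were called.

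Within a region, 3 claudins differed by origin. Cldn2 in the midgut was 13.98, 76.6, 65.9 and 35.2 TPM in exMidgut and 2.52, 9.15, 12.5 and 5.60 TPM in emMidgut, without overlap, and the difference was 2.45 (adjusted p = 0.015). Cldn9 went the other way, with 28.3, 19.2, 33.5 and 34.3 TPM in exMidgut and 127, 93.5, 68.4 and 49.4 TPM in emMidgut, a difference of -1.47 (adjusted p = 0.00821). In the midgut 2.58% of all genes tested were called. Cldn8 in the hindgut was 36.4, 46.4, 58.5 and 57.8 TPM in exHindgut and 14.97, 8.96, 18.7 and 22.2 TPM in emHindgut, again without overlap, a difference of 1.60 (adjusted p = 0.00261), where 3.07% of all genes were called. The test of whether the origin difference changed between midgut and hindgut called none of the 27 genes at an adjusted p under 0.05 (0.0965% of all genes). An unadjusted p was under 0.05 for 1052 of all 13473 genes and for 5 of the 27. The lowest were Cldn9 (adjusted p = 0.272, limma) and Cldn8 (adjusted p = 0.286). A difference in 1 region and not the other was therefore not shown. Beside Cldn2, visceral and yolk sac endoderm markers summed to 7241 to 13894 TPM in exMidgut and 893 to 1549 TPM in emMidgut, and their part in the result was not tested. None of 17 further tight junction genes, 18 polarity genes and 18 epithelial regulators and targets was called between exGut and emGut.

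Within the E9.5 gut more of these genes differed by region than by origin. In emHindgut against emMidgut, 16 of 24 genes tested fell and none rose, where 8.61% of all 12490 genes were called lower and 5.24% higher. In exHindgut against exMidgut, 9 of 26 fell and 1 rose, where 6.78% of all genes were called lower and 4.5% higher. The median difference of these genes was -1.18 in the embryonic and -0.73 in the extraembryonic lineage, beside -0.02 and 0.00 over all genes. The 2 comparisons share no library. Called lower in both were 9 genes, Cldn2, Cldn3, Cldn4, Cldn11, Cldn23, Marveld2, F11r, Tjp3 and Cgn.

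F11r, the junctional adhesion molecule JAM-A, was several-fold lower in the hindgut of both origins. It was 387, 496, 448 and 411 TPM in emMidgut and 58.6, 72.3, 95.3 and 58.0 TPM in emHindgut, a difference of -2.62 ± 0.15 (adjusted p = 2.75e-08). In the extraembryonic lineage it was 359, 447, 446 and 399.7 TPM in exMidgut and 42.8, 82.7, 115 and 77.7 TPM in exHindgut, a difference of -2.44 ± 0.23 (adjusted p = 6.56e-06). The hindgut values lay within the span of the Epi (36.2 to 78.6 TPM) and exEndo2 (59.2 to 115 TPM) values. Tjp3 was 34.7, 17.6, 36.7 and 15.2 TPM in emMidgut and 4.94, 5.82, 5.36 and 5.97 TPM in emHindgut (-1.96 ± 0.32), and 40.9, 33.6, 32.9 and 23.3 in exMidgut and 10.2, 5.44, 18.1 and 13.6 in exHindgut (-1.47 ± 0.34). Cgn was 41.3 to 53.9 TPM in emMidgut and 12.6 to 28.5 TPM in emHindgut (-1.36 ± 0.24), and 45.2 to 73.5 in exMidgut and 18.5 to 35.7 in exHindgut (-1.09 ± 0.25). Both scaffolds were thus lower in the hindgut of each origin, whereas Tjp1, which codes for ZO-1, gave -0.61 ± 0.26 and -0.38 ± 0.25 and was not called.

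Among the claudins, Cldn2 fell in both (-2.81 ± 0.46 and -4.26 ± 0.55) and was listed at 0, 0, 0 and 0.323 TPM in emHindgut and 1.44, 0, 3.47 and 0.921 TPM in exHindgut. Cldn23 was 36.9, 28.6, 39.1 and 22.9 TPM in emMidgut and 5.45, 1.56, 3.15 and 5.21 TPM in emHindgut, and 14.5, 18.6, 37.7 and 27.9 in exMidgut and 11.5, 2.90, 0 and 16.1 in exHindgut. Cldn11, a strand-forming claudin of myelin and testis, was 13.4 to 18.9 TPM in emMidgut and 2.26 to 3.25 in emHindgut, and 9.499, 4.81, 5.34 and 17.3 in exMidgut and 0, 2.61, 2.96 and 0 in exHindgut. The exHindgut calls of Cldn23 (adjusted p = 0.0465), Cldn11 (adjusted p = 0.0155) and Cgn were each lost in some fits that left out 1 library. These were exMidgut replicate 4 for Cldn11, exHindgut replicates 2 and 3 and exMidgut replicates 2, 3 and 4 for Cldn23, and exHindgut replicates 1 and 2 and exMidgut replicate 1 for Cgn. Cldn3 (-1.88 ± 0.23 and -1.77 ± 0.30), Cldn4 (-1.13 ± 0.13 and -1.18 ± 0.11) and Marveld2 (-1.48 ± 0.22 and -1.33 ± 0.21) fell in both.

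A further 7 genes were called lower in the embryonic hindgut and missed the thresholds in the extraembryonic one. They were Cldn6 (-1.11 ± 0.09, and -0.81 ± 0.10 in the extraembryonic lineage), Cldn8 (-1.55 ± 0.26 and -0.38 ± 0.21), Ocln (-1.18 ± 0.20 and -0.68 ± 0.18), Marveld3 (-1.54 ± 0.35 and -0.51 ± 0.54), Epcam (-1.15 ± 0.10 and -0.79 ± 0.11), Crb3 (-1.32 ± 0.16 and -0.81 ± 0.19) and Pard6b (-1.18 ± 0.34 and -0.80 ± 0.40). Crb3, the small Crumbs protein of epithelia, was 165, 187, 238 and 226 TPM in emMidgut, 89.1, 59.7, 84.4 and 91.1 in emHindgut, 175, 174, 208 and 248.6 in exMidgut and 134, 141, 110.4 and 78.6 in exHindgut. The direction was the same in both origins for all 7, and the difference between origins was not significant in the interaction test given above. Cldn9 was the 1 gene that rose, in exHindgut against exMidgut (1.23 ± 0.21, adjusted p = 0.00124), with 19.2 to 34.3 TPM in exMidgut and 58.3 to 78.1 TPM in exHindgut, and in the embryonic lineage it gave 0.12 ± 0.22. Cldn7, Cldn12, Tjp1, Patj, Pard3, Esrp1 and Grhl2 were called in neither lineage. Ocln lost its call without emHindgut replicate 1, and Pard6b did without emHindgut replicate 2 or without the emMidgut replicates 1 and 3.

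**Figure D4:**
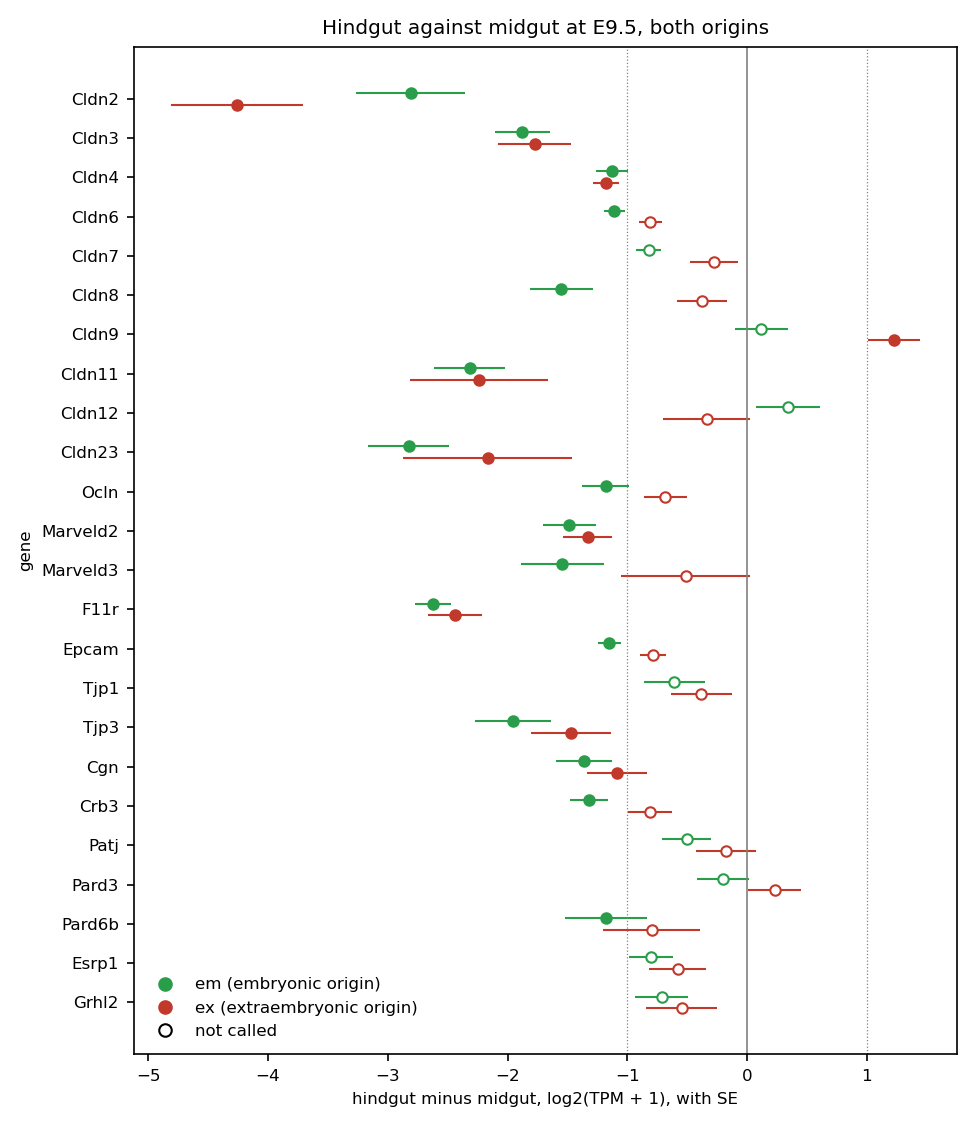
Difference between hindgut and midgut at E9.5 on the log2(TPM + 1) scale (x axis, with SE bars) for the 24 genes tested in both origins (y axis). Green is emHindgut minus emMidgut and red is exHindgut minus exMidgut, each from 4 against 4 libraries, and filled points were called. Most points of both colours lie left of 0, F11r lies at -2.62 and -2.44, and Cldn9 lies to the right in the extraembryonic lineage.

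In bulk samples a lower level from fewer cells of a type and from less RNA per cell cannot be told apart. The hindgut libraries also held RNA of genes used in the tail bud and in mesenchyme. T was 239, 177, 258 and 312 TPM in emHindgut and 286, 163, 141 and 195 in exHindgut, against at most 11.9 TPM in any midgut library. Snai1, a repressor of epithelial genes, was 81.9, 97.3, 63.7 and 64.7 TPM in emHindgut, 16.8, 14.3, 21 and 37.1 in exHindgut, 2.16, 6.68, 1.38 and 1.97 in emMidgut and 5.40, 0, 1.04 and 0 in exMidgut. The 11 mesenchyme markers summed to 219.8 to 284 TPM in emHindgut, 131 to 193 in emMidgut, 92.4 to 137 in exHindgut and 32.0 to 65.6 in exMidgut, with 10 of 11, 6 of 11, 10 of 11 and 5 of 11 above 1 TPM. The collagen gene Col3a1 was at most 1.54 TPM in any of these 16 libraries. The part of these cells or genes in the result was not tested. Of further epithelial regulators and targets, 10 of 16 tested were lower and 1 was higher in emHindgut, the largest differences being Ovol2 (-2.38 ± 0.44), Prss8 (-2.02 ± 0.12) and Krt18 (-1.80 ± 0.13), and 8 of 18 were lower and 1 higher in exHindgut. Further tight junction genes gave 2 of 17 higher and none lower in each origin, Ybx3 and Amot in both.

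At E13.5, where the ex cells are labelled as Trp53 knockout, none of the 26 genes tested was called between ex and em with organ as a covariate, where 0.625% of all genes were called. An unadjusted p was under 0.05 for 1415 of all 12483 genes and for 3 of the 26, Epcam (0.38 ± 0.13, adjusted p = 0.245), Cldn2 (2.19 ± 0.77, adjusted p = 0.266) and Patj (1.10 ± 0.44, adjusted p = 0.336). Cldn2 was 14.4, 34.1 and 16.0 TPM in exSI and 0.394, 10.2 and 1.38 in emSI, without overlap, and 22.4, 0 and 11.6 in exColon and 3.36, 0.806 and 0 in emColon, with overlap. Cldn7 was 645, 774 and 657 TPM in exSI, 518, 509 and 481 in emSI, 429, 445 and 468 in exColon and 579, 853 and 724 in emColon, so the ex libraries lay above em in the small intestine and below it in the colon. Its interaction of origin with organ was -1.12 ± 0.24 (unadjusted p = 2.71e-04, adjusted p = 0.241) and was not called. The interaction called none of the 26 genes and 0.016% of all genes. An unadjusted p was under 0.05 for 6 of the 26 and for 1038 of all 12483 genes. Leaving out any 1 library, the emSI and exColon libraries that stood apart included, gave no called gene between ex and em.

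Between colon and small intestine none of the 25 genes tested in em or the 24 tested in ex was called, where 0.472% and 0.693% of all genes were called. An unadjusted p was under 0.05 for 7 of the 25 in em, beside 1178 of all 11239 genes. In ex it was under 0.05 for 4 of the 24, beside 1221 of all 11405 genes. The lowest p in em was for Cldn8, 83.9, 64.3 and 98.7 TPM in emColon and 13.4, 19.0 and 22.2 in emSI (2.12 ± 0.39, adjusted p = 0.0517), and it was called under FPKM and under median-ratio rescaling. Cldn11 was 11.8, 19.1 and 8.33 TPM in emSI and listed at 0 in all 3 emColon libraries, and it passed the thresholds in a fit without the variance trend. The spread at E13.5 was wide, with Grhl2 at 30.3, 55.9 and 9.09 TPM in emColon and 48.9, 24.7 and 14.96 in exSI, and Tjp1 at 30.9, 27.4 and 4.12 in emColon.

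From E9.5 to E13.5 the embryonic gut changed its claudins. With position along the gut as a covariate, 7 of 26 genes tested were called, 4 higher and 3 lower, where 2.94% of all genes were called higher and 16.7% lower. The stages also differ in pooling, with 4 embryos per library at E9.5 and 1 at E13.5, and in the gate, with dual-labelled em cells of low mCherry at E9.5 and GFP+ em cells at E13.5, so that stage, pooling and gate cannot be told apart. Cldn3 rose to 195, 301 and 376 TPM in emSI and 520.0, 612 and 528 in emColon (2.19 ± 0.40, adjusted p = 8.47e-04). Cldn7 rose by 1.15 ± 0.19 (adjusted p = 4.12e-04), to 481 to 518 and 579 to 853 TPM. Cldn23, a claudin of differentiated gut epithelium, rose by 2.11 ± 0.48, to 33.9 to 64.4 and 48.4 to 72.3 TPM, and Cldn10 rose by 1.92 ± 0.56, with 11.6, 3.99 and 11.3 TPM in emSI and 9.56, 0 and 0.522 in emColon. Every E13.5 em library stood above every E9.5 em library for Cldn7, and for Cldn3 1 emSI library stood below the highest emMidgut library. Cldn9 fell (-2.69 ± 0.58, adjusted p = 0.00312), to 15.7, 13.0 and 22.7 TPM in emSI and 23.7, 0 and 35.4 in emColon, as did Cldn11 (-1.11 ± 0.34) and Patj (-1.10 ± 0.32). Cldn6 gave -0.54 ± 0.23 and was not called. The median over all genes was -0.46, rescaling brought it to -0.24, and with rescaling Cldn11 and Patj were no longer called. Patj also lost its call without emSI replicate 1 or 2, and Cldn10 and Patj lost theirs when the emMidgut replicates 1 and 3 were left out. Without emColon replicate 2 Grhl2 and Tjp1 were called lower, and without emColon replicate 1 Tjp1 was. Of 17 further tight junction genes tested 7 fell and none rose, where the background of genes called lower is 16.7%.

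Across the 12 group means, the genes whose rank order was most like that of Grhl2 were Marveld2 (Spearman rho 0.88), Cldn8 (0.86), Esrp1 (0.85) and Cldn4 (0.80), and those least like it were Cldn19 (-0.74) and Cldn12 (-0.71). These values describe 12 means that share depth, scaling and cell make-up within a stage, and no p is given. Cldn12, a claudin without the usual scaffold-binding tail, varied least of the claudins above 1 TPM in every group, with group means from 10.9 TPM in exColon to 25.4 TPM in exEndo2. Grhl2 itself ran from 1.78 TPM in exEndo2 and 2.39 TPM in YsEndo, which gave 0.39 ± 0.28 for YsEndo against exEndo2 (adjusted p = 0.234), through exEndo1 to the gut groups. Pard3 and Pard6b, core subunits of the Par complex, were highest in exEndo1 (38.8 ± 1.04 TPM, SD, n = 4) and exEndo2 (19.4 ± 3.60 TPM) and lowest in YsEndo (10.0 ± 0.751) and emColon (replicates at 4.19, 0.233 and 4.601).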

How the data were processed

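The poly(A) transcripts of 44 small samples were sequenced. According to the submitters' processing notes and the study's methods, trimming used cutadapt 4.1, alignment to mm10 plus the reporter sequences used STAR 2.7.9a, and genes of GENCODE VM23 were quantified by StringTie 2.0.6. The values deposited by the authors were TPM and FPKM, both scaled for gene length and library, and per-base coverage, a signal not scaled to the library from which depth was judged. No counts were used.

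The main test was limma 3.58.1 in R 4.3.3 (lmFit and eBayes with trend, two-sided, Benjamini-Hochberg over all genes tested) on log2(TPM + 1), with protein-coding genes not on the Y chromosome above 1 TPM in at least 4 libraries, or 3 with E13.5 groups. A fold change on this scale understates that of low genes. Only the compared groups entered a fit, and E13.5 ex against em had organ, and E13.5 em against E9.5 em position, as a covariate. A call needed an adjusted p under 0.05 and a log2 difference above 1, and an interaction only the former. The procedure was tested on simulated data first.

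The 31 genes and the further lists were chosen with earlier results of these data known. Genes given library by library were those above 50 TPM in at least 1 group and called at least once, and those called differently between regions or organs, and from further lists at most 3 genes in each direction. The count of further tight junction genes in emGut against Epi is not reported here. Other genes given library by library (Cldn1, Cldn5, Cldn10, Cldn15 and the marker genes) were chosen after their values were seen. The alternatives were FPKM, a pseudocount of 0.1, no filter, median-ratio rescaling, eBayes without trend, a replicate block, single regions or organs and each library left out. Leaving out the 2 emMidgut libraries with germ cell transcripts, and the regions alone against Epi and exEndo1, were added after seeing the data. Same-numbered libraries of exEndo1 and exEndo2 deviated together, with correlations of 0.146 to 0.380 over 4 pairs. In no other 2 groups did all such pairs exceed 0.1. At E9.5 own numbers matched best in 3 of 4 for emMidgut with exMidgut and emHindgut with exHindgut, at correlations up to 0.0702. The same held for exMidgut with emHindgut, exMidgut with exHindgut and exHindgut with YsEndo. For the other pairs of E9.5 groups it was 1 or 2 of 4. At E13.5 own numbers matched best in 3 of 3 for emSI with exSI, emSI with exColon, exSI with exColon and emColon with exColon, at correlations up to 0.0663. They did in 0 of 3 for emSI with emColon and 1 of 3 for exSI with emColon. Whether same-numbered E13.5 libraries shared an embryo, or same-numbered E9.5 libraries a pool, was not tested. The main fits did not pair the libraries. Levels and shares used Python 3.11.15 with pandas 2.3.3, NumPy 2.4.6 and SciPy 1.17.1.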

Additional observations from a re-analysis of the deposited data

Results flagged for a closer look

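Over 185 gene and group pairs with 4 libraries, 11 had a library whose gap to the nearest other exceeded Dixon's 95% critical value, where chance flags about 1 in 20, or 9.25. In Epi, replicate 4 was lowest for Cldn6 (91.2 TPM, the others 257 to 266) and for Cldn7 (61.6 TPM, the others 119 to 126). In exEndo1, replicate 1 was lowest for Cldn6 (424 TPM, the others 723 to 785), Cldn7 (182 TPM, the others 259 to 267) and Tjp3 (4.52 TPM, the others 10.8 to 12.6), and replicate 2 was highest for Cldn1 (13.1 TPM, the others 0 to 0.0733). Replicate 2 was lowest for Cldn3 in exMidgut (92.1 TPM, the others 216 to 256) and in emHindgut (24.0 TPM, the others 51.9 to 56.6). The remaining ones were Cldn7 in exMidgut (replicate 3 at 531 TPM, the others 264 to 297), Cldn11 in emHindgut (replicate 2 at 3.25 TPM, the others 2.26 to 2.39) and Epcam in YsEndo (replicate 3 at 279.8 TPM, the others 239 to 245).

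For 2 genes every ex library lay on 1 side of every em library in the small intestine and on the other side in the colon. How many of all genes showed this pattern, with 3 libraries per group, was not counted. The 2 are therefore not read as a trait of these genes. Cldn7 was higher in exSI (mean 692 TPM) than in emSI and lower in exColon than in emColon, and its interaction in limma was -1.12 ± 0.24 (adjusted p = 0.241). Cldn11 was lower in exSI (mean 0.765 TPM) than in emSI (11.8, 19.1 and 8.33 TPM) and was 6.64, 0.295 and 0.744 TPM in exColon, against 0 in all emColon libraries, and its interaction was 4.54 ± 1.12 (adjusted p = 0.259). Neither passed the adjustment over all genes.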

How the results depend on the processing

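Without read counts, the precision of a low value could not be separated from the spread between libraries. Over 107 calls of single genes, 1786 alternative fits kept the direction throughout, and in 59 of them the call was lost. In every fit 83 of the 107 calls were kept. Of 245 recomputed counts of called genes, 233 stayed within 1.5 times the reported count. For exGut against emGut the count was 3 with region as a covariate, 2 with midgut libraries alone and 0 without the emMidgut replicates 1 and 3, against 1. For emColon against emSI it was 1 with FPKM, 1 with median-ratio rescaling and 1 without the variance trend, against 0.

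Leaving out each library in turn gave 9 to 11 called genes in exEndo1 against Epi, 11 to 13 in exEndo2 against Epi, 2 to 4 in exEndo1 against exEndo2, 1 to 3 in exGut against emGut, 15 to 16 in emHindgut against emMidgut, 8 to 10 in exHindgut against exMidgut, 12 to 14 in emGut against Epi, 13 to 15 in exGut against exEndo1, 5 to 8 in YsEndo against exEndo2 and 6 to 9 in E13.5 em against E9.5 em. The count stayed at 15 in exGut against YsEndo and at 0 in the 3 comparisons within E13.5. With the replicate block, exEndo1 against exEndo2 gave 4 called genes as before and exEndo2 against Epi gave 12, adding Cldn4, and no other call changed. Median-ratio rescaling moved the median of all genes in exGut against YsEndo, YsEndo against exEndo2, emGut against Epi and E13.5 em against E9.5 em, by the amounts given with those results.

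Counts over all genes moved more. In exGut against emGut 587 genes were called with region as a covariate, against 316. In E13.5 ex against em 30 were called in the colon alone, against 78. In emColon against emSI the count was 3 without the filter and 12 to 40 with 1 library left out, against 53. In exColon against exSI it was 11 with a pseudocount of 0.1, 2 without the filter and 7 to 51 with 1 library left out, against 79. The interaction at E9.5 gave 0 genes with a pseudocount of 0.1 and 8 without the filter, without the trend or with the block, against 13. At E13.5 it gave 0 with a pseudocount of 0.1, 14 without the filter and 6 without the trend, against 2.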

Other observations

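Some claudins of low level followed other patterns. Cldn18, a claudin of stomach and lung, was 2.46, 0, 13.9 and 0.0915 TPM in exMidgut, 1.99, 1.30, 1.00 and 0 in emMidgut, 11.1, 0.983 and 3.23 in exSI and 0.0833, 5.15 and 4.11 in emSI, with a wide spread within each group, and at most 1.96 TPM in any other library. Cldn10 at E13.5 was 32.4, 10.9 and 42.6 TPM in exColon and 9.56, 0 and 0.522 in emColon, but 6.82, 0 and 5.03 in exSI and 11.6, 3.99 and 11.3 in emSI. The interaction of origin with organ for Cldn10 was 4.70 ± 1.42 in limma (adjusted p = 0.413). Marveld3 was listed at 0, 0 and 0.0671 TPM in exColon and 23.7, 0.159 and 22.6 TPM in emColon, and the difference between ex and em over both organs was -1.17 ± 1.005 (adjusted p = 0.735).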
